A study of Penicillium oxalicum with 9 samples.

Results

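The genes described here are the 31 consecutive identifiers from POX_a00748 to POX_a00778 of the filamentous fungus Penicillium oxalicum, with cxrA (POX_a00763), the gene deleted in the mutant ΔcxrA, in the middle. Membership was set by number alone, 15 identifiers on each side of cxrA, but the set was chosen with earlier results of these data known. All 31 were listed in the deposited tables, out of 9822 annotated identifiers and 11082 listed features, and POX_a, the first chromosome, has 1918 identifiers. In RefSeq assembly ASM172317v3 the 31 identifiers are consecutive protein-coding genes on chromosome I, in the order of their numbers. That annotation also has 5 ribosomal RNA genes among them, 2 between cxrA and POX_a00764 and 3 between POX_a00777 and POX_a00778. Distance from cxrA was counted in identifiers, because the build behind the deposited tables was not given in the sources used here.

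RNA-sequencing covered 9 libraries, 3 biological replicates of each of 3 strains of the HP7-1 lineage. ΔcxrA (PoxCxrA knockout in the labels) lacks cxrA, and Δprmt3 (labelled POX03070 knockout) lacks the arginine methyltransferase gene prmt3. In both mutants the deleted gene was replaced by a G418 resistance marker in the background strain. Δku70, labelled WT, is that background strain, and all 3 strains lack ku70 and carry the hygromycin resistance marker hph. Mycelium pre-grown on 1% glucose for 24 h at 28°C was moved to 2% Avicel, which is microcrystalline cellulose, and RNA was taken 24 h later. By design, ΔcxrA is the only strain altered at the studied locus, so the loss of CxrA, the gap in the chromosome and the marker put there cannot be told apart in it. Which transformant of each mutant was sequenced was not given in the sources used here.

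CxrA is a transcription factor of the Zn2Cys6 type, a family of fungal proteins that bind DNA through a zinc cluster. It is known in P. oxalicum as a regulator of the secreted enzymes that degrade cellulose and xylan. In filamentous fungi, genes that lie side by side often change together, as in clusters for secondary metabolites. The ku70 deletion removes a protein of non-homologous end joining and makes targeted gene replacement efficient.

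Expression is given as FPKM (read fragments relative to the length of the transcript and to the size of the library), scaled between libraries by the median of ratios. The scaling factors were 1.23 to 1.28 in ΔcxrA, 0.822 to 0.863 in Δprmt3 and 0.909 to 0.964 in Δku70. Without this scaling the median of all tested features would shift to 0.46 in ΔcxrA and -0.13 in Δprmt3 against Δku70 on the log2 scale, in place of 0.06 and 0.00. Read counts were not analysed here, so the depth is known only in relative terms, with the value of 1 fragment differing at most 1.54-fold between libraries. Actin (POX_d06005) averaged 94.5 ± 5.53 in ΔcxrA, 34.5 ± 2.49 in Δprmt3 and 35.4 ± 1.38 scaled FPKM in Δku70 (SD, n = 3 each). The deleted prmt3 (POX_b03080) was listed at 0, 0.05 and 0 in Δprmt3, against 35.1, 27.4 and 30.2 scaled FPKM in Δku70, and had 51.3, 51.2 and 58.2 in ΔcxrA. Of 3 regulators of conidiation, brlA (POX_c03558) and flbD (POX_e07032) fell in both mutants against Δku70, and abaA (POX_e06958) fell in Δprmt3 and had a log2 fold change of 0.39, not called, in ΔcxrA. The median log2 fold change of these regulators was -4.30 in ΔcxrA and -1.38 in Δprmt3, and their part in the changes described next was not tested.

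Across the locus the pattern was one-sided. All 15 genes on the side of the lower numbers, POX_a00748 to POX_a00762, fell in ΔcxrA, by a median of 2.28 on the log2 scale or 4.85-fold. On the other side, POX_a00764 to POX_a00778, 2 genes fell, 4 rose and 9 were not called. In this comparison 29.7% of the 10578 tested features were called, 13.2% lower and 16.4% higher, so that the 40.0% called on the high-number side stood nearer to the background than the 100% on the low-number side. In Δprmt3, whose deletion lies elsewhere in the genome, the same 15 genes of the lower numbers were all called as well, 13 of them lower and 2 higher, and none of the 15 on the other side was called, against a background of 11.1%. A gene was called at an adjusted p-value under 0.05 with limma and an absolute log2 fold change over 1. Both comparisons with Δku70 use the same 3 Δku70 libraries and are not independent.

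cxrA itself checked the strain labels. It was listed at 0, 0 and 0 in ΔcxrA, and had 157, 125 and 118 scaled FPKM in Δprmt3 and 122, 133 and 94.1 in Δku70. The Δprmt3 and Δku70 libraries overlapped, with a log2 fold change of 0.20 ± 0.16 (SE) and a limma adjusted p of 0.40. cxrA is left out of the counts below, which cover its 30 neighbours.

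**Figure D1:**
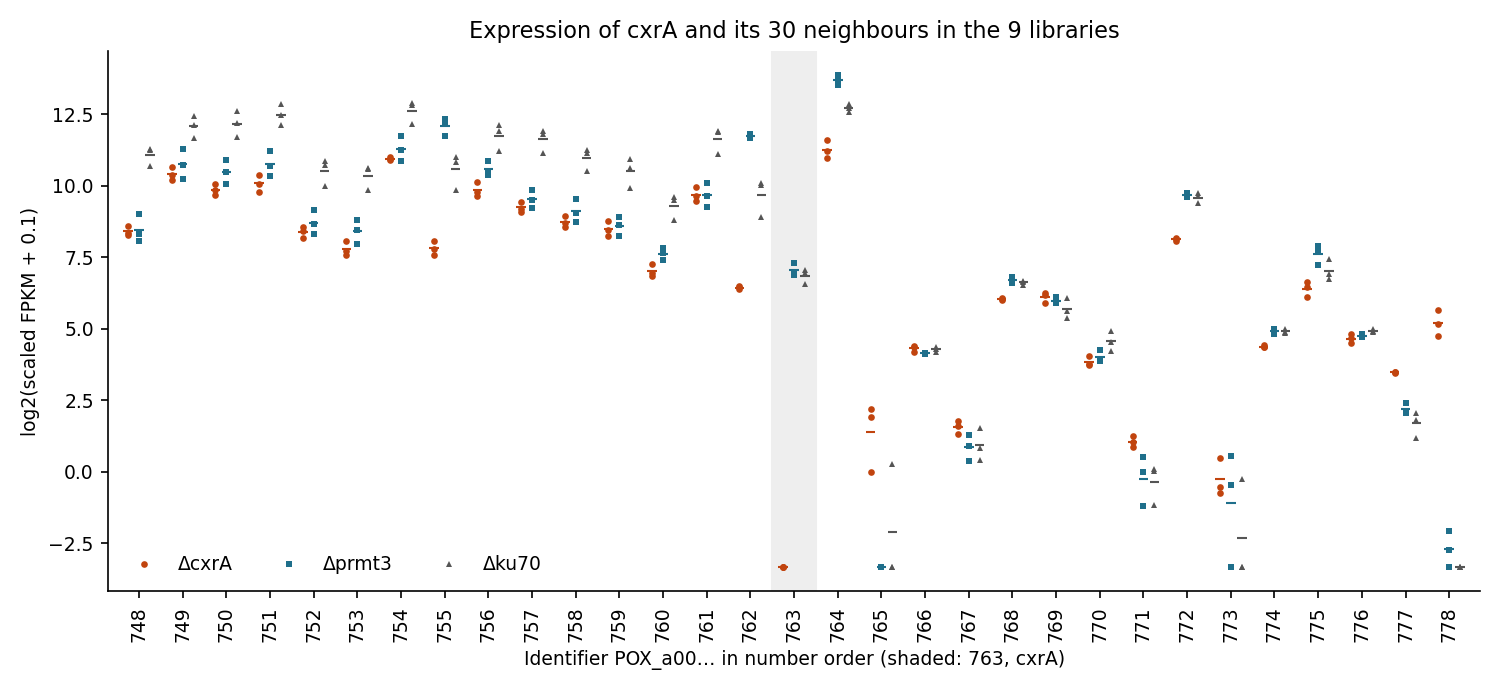
Expression of cxrA (shaded) and its 30 neighbours. The vertical axis is log2(scaled FPKM + 0.1), the horizontal axis the identifiers in number order, each symbol 1 library and each short line a strain mean, with ΔcxrA left, Δprmt3 in the middle and Δku70 right at each gene. The 15 genes left of cxrA lie at strain means of 650 to 6436 scaled FPKM in Δku70 and of 86.7 to 1969 in ΔcxrA, and most genes right of cxrA are far lower.

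The genes of the low-number side were among the strongly expressed genes of the fungus. Their strain means ran over 86.7 to 1969 scaled FPKM in ΔcxrA, with a median of 429, over 198 to 4399 in Δprmt3, with a median of 832, and over 650 to 6436 in Δku70, with a median of 2189. The median of all features above 0 was 23.9 in ΔcxrA, 26.0 in Δprmt3 and 27.0 in Δku70. Among all features, 3 of the 15 stood in the top 100 in ΔcxrA, 5 in Δprmt3 and 9 in Δku70. Together these 15 genes held 1.02%, 1.12% and 1.32% of all FPKM in the ΔcxrA libraries, 1.35%, 1.66% and 1.92% in the Δprmt3 libraries and 4.68%, 4.08% and 2.66% in the Δku70 libraries. The annotation used by the study calls each of them a hypothetical protein, so that no role can be given for any. How similar their sequences are was not analysed here, and reads that match several genes were divided among them by the quantification, so the split between near-identical copies would be uncertain.

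The 5 genes nearest to cxrA on this side had the following levels, each given as scaled FPKM in the 3 libraries of a strain. POX_a00762, next to cxrA, had 83.5, 89.4 and 87.3 in ΔcxrA, 3235, 3551 and 3492 in Δprmt3, and 1032, 1097 and 481 in Δku70. It was lowest in ΔcxrA and highest in Δprmt3, and no libraries of different strains overlapped. POX_a00761 had 704, 803 and 999 in ΔcxrA, 613, 799 and 1084 in Δprmt3, and 3753, 3815 and 2213 in Δku70. POX_a00760 had 115, 125 and 155 in ΔcxrA, 169, 198 and 227 in Δprmt3, and 772, 730 and 447 in Δku70. For both of these genes every mutant library lay below every Δku70 library. POX_a00759 had 305, 352 and 435 in ΔcxrA, 304, 399 and 477 in Δprmt3, and 1952, 1588 and 975 in Δku70. POX_a00758 had 376, 418.2 and 494 in ΔcxrA, 426, 528 and 741 in Δprmt3, and 2457, 2267 and 1449 in Δku70. The mutants overlapped each other in these 2 genes and lay apart from Δku70.

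In the next 5 genes, at a distance of 6 to 10, both mutants lay below Δku70 with 1 exception. POX_a00757 had 547, 584 and 689 scaled FPKM in ΔcxrA, 599, 733 and 915 in Δprmt3, and 3813, 3606 and 2282 in Δku70. POX_a00756 had 796, 876 and 1109 in ΔcxrA, 1327, 1461 and 1844 in Δprmt3, and 4419, 3830 and 2367 in Δku70. Both genes were lower in every mutant library than in any Δku70 library, and in POX_a00756 the mutants were apart as well, with ΔcxrA lowest. POX_a00755, the exception, had 191, 223 and 267 in ΔcxrA, 3439, 5204 and 4555 in Δprmt3, and 2056, 1831 and 933 in Δku70. As in POX_a00762, the Δprmt3 libraries were the highest and the ΔcxrA libraries the lowest, without overlap. POX_a00754 had 1897, 1958 and 2053 in ΔcxrA, 1865, 2413 and 3452 in Δprmt3, and 7528, 7170 and 4610 in Δku70. POX_a00753 had 189, 212 and 266 in ΔcxrA, 249, 349 and 446 in Δprmt3, and 1591, 1527 and 914 in Δku70. Both mutants were below Δku70 in every library of these 2 genes.

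The 5 genes farthest out on this side were also low in both mutants. POX_a00752 had 287, 341 and 372 scaled FPKM in ΔcxrA, 316, 401 and 572 in Δprmt3, and 1861, 1705 and 1018 in Δku70. POX_a00751 had 879, 1078 and 1342 in ΔcxrA, 1287, 1656 and 2392 in Δprmt3, and 7350, 5743 and 4421 in Δku70. POX_a00750 had 808, 933 and 1078 in ΔcxrA, 1060, 1437 and 1919 in Δprmt3, and 6258, 4719 and 3305 in Δku70. The Δku70 libraries of these 3 genes lay above all libraries of both mutants. POX_a00749 had 1171, 1321 and 1604 in ΔcxrA, 1197, 1709 and 2497 in Δprmt3, and 5573, 4427 and 3227 in Δku70. POX_a00748, at a distance of 15, had 314, 325 and 386 in ΔcxrA, 270, 316 and 517 in Δprmt3, and 2495, 2430 and 1642 in Δku70. The mutants overlapped in these 2 genes and lay apart from Δku70.

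In ΔcxrA against Δku70, 17 of the 30 neighbours fell and 4 rose, or 70.0% called, against the background of 29.7% (13.2% lower and 16.4% higher). The log2 fold changes of the 15 genes on the low-number side lay between -3.23 and -1.67, with standard errors of 0.22 to 0.30, and the largest limma adjusted p among them was 0.0014. Quantile normalization moved the log2 fold changes of POX_a00749 to -1.09, of POX_a00754 to -1.13, of POX_a00756 to -1.31 and of POX_a00761 to -1.32. All of these stayed called. The largest fall among the 30 neighbours was in POX_a00762, the gene next to cxrA, at -3.23 ± 0.27 (SE), and the smallest on this side was in POX_a00749, at -1.67 ± 0.30. The ΔcxrA libraries lay below the Δku70 libraries without overlap in 22 of the 30 neighbours and above them in 3, against a background of 33.1% and 35.6% of the tested features.

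In Δprmt3 against Δku70, 13 of the 30 neighbours fell and 2 rose, or 50.0% called, against a background of 11.1% (7.51% lower and 3.59% higher). All of these genes lie on the low-number side. The 13 that fell had log2 fold changes from -2.60 in POX_a00748 to -1.16 in POX_a00756, with a median of -1.83, or 3.54-fold, and limma adjusted p-values of at most 0.012. The Δprmt3 libraries lay below the Δku70 libraries without overlap in 15 of the 30 neighbours and above them in 3, against a background of 19.8% and 20.2%. POX_a00755 rose by 1.51 ± 0.30 (SE, limma adjusted p = 0.0069) and POX_a00762 by 2.07 ± 0.27 (limma adjusted p = 0.00086). The call of POX_a00756 was lost when Δku70 replicate 1 was left out, with a log2 fold change of -0.98. None of the other 14 calls on this side in Δprmt3, and none of the 15 in ΔcxrA, was lost when any replicate was left out or under another processing setting.

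The difference between the mutants was tested directly. Of the 30 neighbours, 5 were lower and 3 higher in ΔcxrA than in Δprmt3, or 26.7%, against a background of 29.8% (12.2% lower and 17.6% higher). The ΔcxrA libraries lay below the Δprmt3 libraries without overlap in 9 of the 30 and above them in 6, against a background of 32.3% and 35.4%. Without scaling between libraries, where the median of all tested features shifts to 0.63 in place of 0.07, this split was 3 lower and 5 higher. The 13 genes that fell in both mutants gave 0 calls here, with log2 fold changes from -0.74 to 0.03, a median of -0.35 and standard errors of 0.22 to 0.30. The smallest limma adjusted p among them was 0.031, in POX_a00756, whose log2 fold change of -0.74 ± 0.25 (SE) did not pass the fold threshold. The absence of calls does not show that these 13 genes had equal levels in the mutants. POX_a00755 and POX_a00762, by contrast, were lower in ΔcxrA than in Δprmt3 by -4.27 ± 0.30 (SE, limma adjusted p = 7.8e-06) and -5.30 ± 0.27 (limma adjusted p = 1.7e-06).

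**Figure D2:**
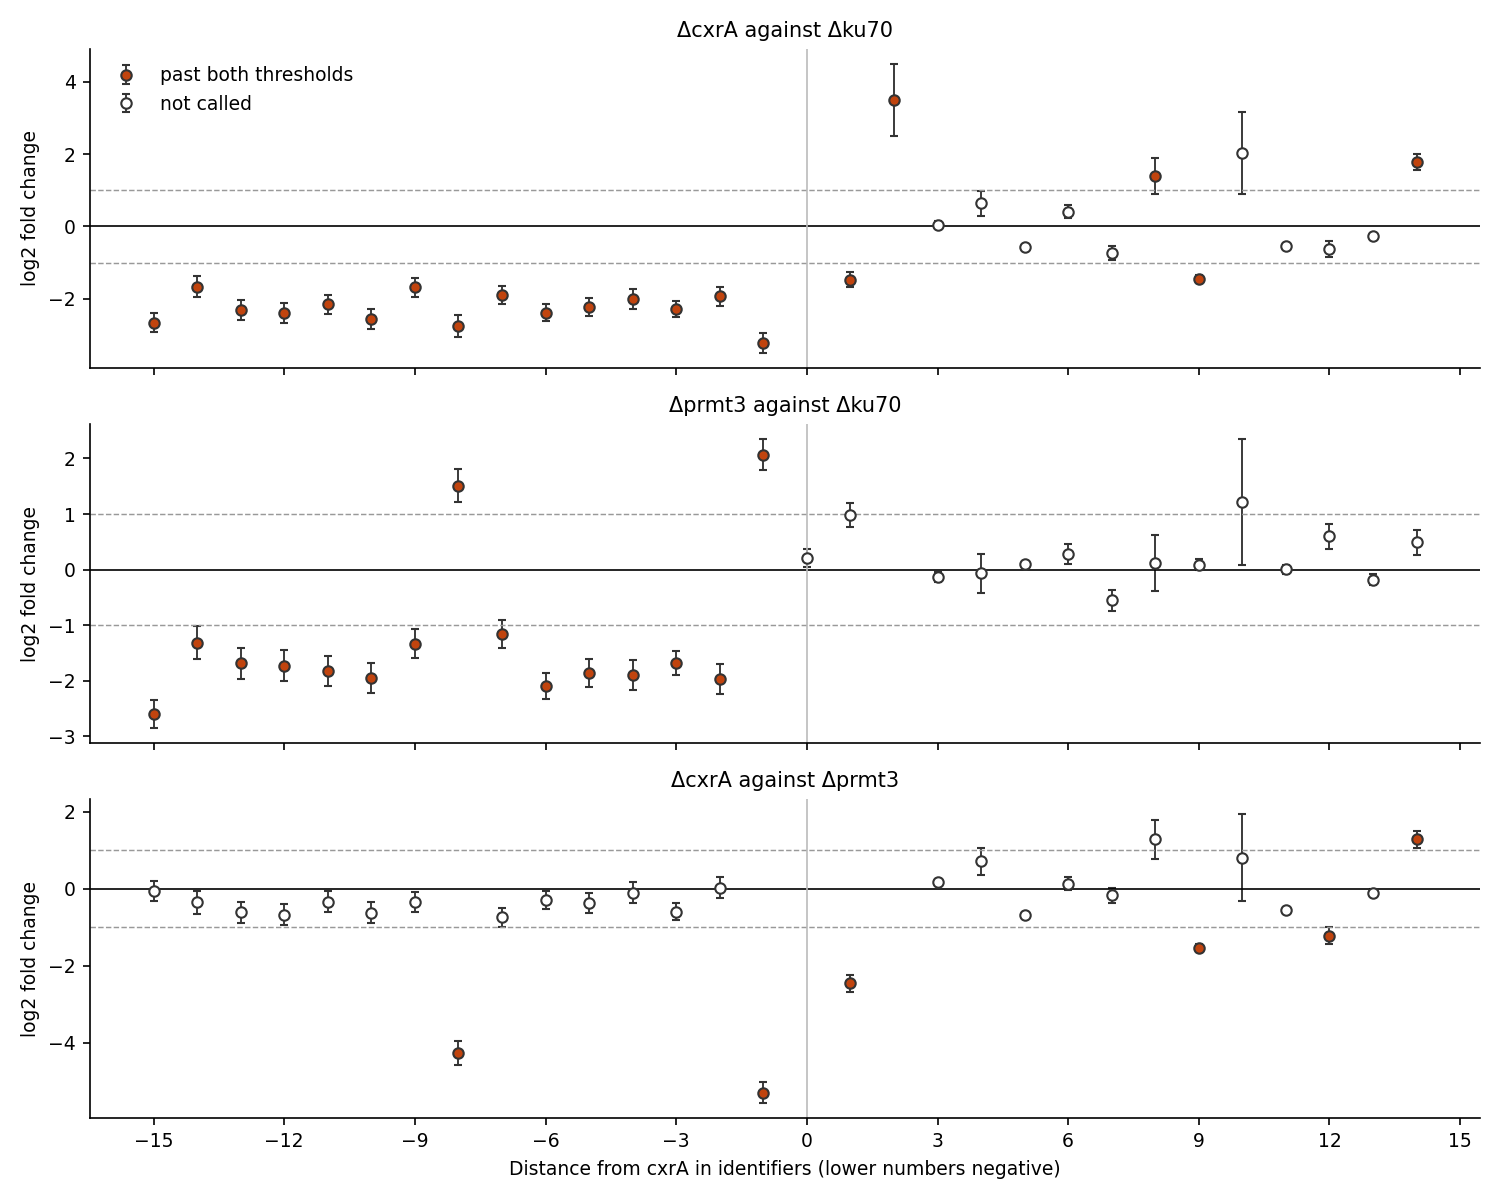
Log2 fold change of each gene against its distance from cxrA in identifiers, with lower numbers to the left. Points are limma estimates on log2(scaled FPKM + 0.1), bars are standard errors, filled points passed both thresholds and dashed lines mark -1 and 1; genes with a strain mean below 0.1 are left out of a panel. The 15 points left of cxrA lie between -3.23 and -1.67 for ΔcxrA, and 13 of them are also called lower for Δprmt3.

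The order of the 15 levels also differed between the mutants. Across these 15 genes, Spearman's rho between the strain means was 0.95 for ΔcxrA and Δku70 and 0.48 for Δprmt3 and Δku70, given as a description of genes that share libraries. In Δprmt3, POX_a00755 at 4399 ± 893 and POX_a00762 at 3426 ± 168 scaled FPKM (SD, n = 3 each) were the highest of the 15. In Δku70 they averaged 1606 ± 594 and 870 ± 339, and in ΔcxrA 227 ± 38.3 and 86.7 ± 2.95.

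In ΔcxrA, where all 15 genes of the low-number side fell, the size of the change did not grade with distance from the deletion. The median log2 fold changes in ΔcxrA were -2.23 at a distance of 1 to 5, -2.38 at 6 to 10 and -2.30 at 11 to 15. In Δprmt3, where 13 of these genes fell and 2 rose, the medians with their sign were -1.87, -1.33 and -1.73 at the same distances. Spearman's rho between distance and signed log2 fold change was 0.01 in ΔcxrA and -0.11 in Δprmt3 over the 15 genes of this side. Over the 15 genes of the other side it was 0.24 and 0.30. Where a set holds both rises and falls, these values do not measure the size of the change. These are descriptions over genes that share the same libraries.

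Replicates moved together on the low-number side. In ΔcxrA, replicate 1 was the lowest of the 3 replicates for all 15 genes, with deviations from the strain mean of -0.30 to -0.05 on the log2 scale. In Δprmt3 replicate 1 was also the lowest for all 15, with deviations of -0.52 to -0.08. In Δku70 it was replicate 3, with deviations of -0.76 to -0.37. Across the 9 libraries the median correlation of these deviations was 0.94 over the 105 pairs of genes, and 0.95, with a range of 0.86 to 0.99, over the 78 pairs without POX_a00755 and POX_a00762. On the high-number side, where most levels were far lower, the median over 105 pairs was 0.01. In 124 other stretches of 15 consecutive POX_a identifiers, not matched to these genes in expression level, it ran from -0.13 to 0.29. The 15 calls on the low-number side are thus not 15 independent results. With Δku70 replicate 3 left out, 22 of the 30 neighbours were called in ΔcxrA, and with ΔcxrA replicate 1 left out, 19.

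**Figure D3:**
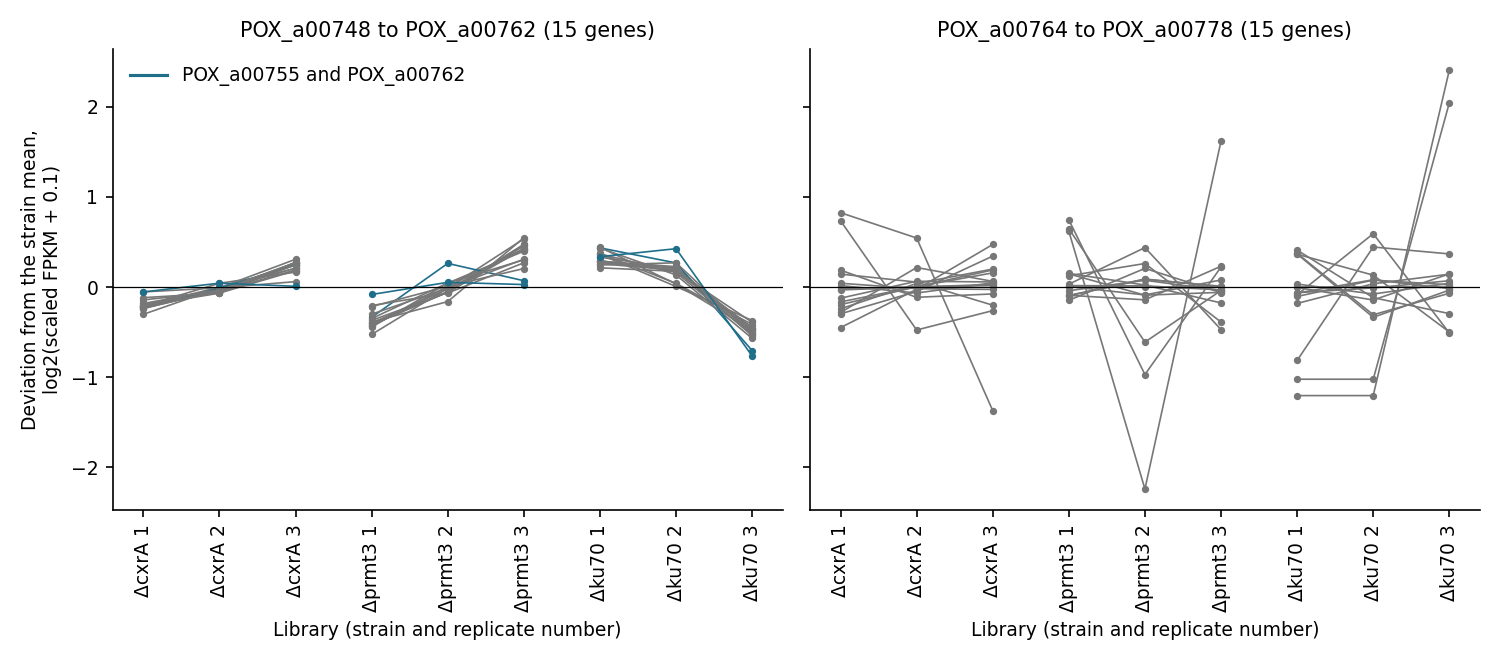
Deviation of each gene from its strain mean in the 9 libraries, on the scale log2(scaled FPKM + 0.1), with 1 line per gene and strain. Left, the 15 genes of the low-number side lie close together, all at their lowest in Δku70 replicate 3 (-0.76 to -0.37); right, the 15 genes of the high-number side show no shared order.

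The high-number side was more mixed. POX_a00764, next to cxrA and annotated as an endo-1,4-β-glucanase, an enzyme that cuts within cellulose chains, had 1982, 2354 and 3090 scaled FPKM in ΔcxrA, 14854, 13578 and 11837 in Δprmt3, and 6719, 6102 and 7461 in Δku70. The strains did not overlap, with ΔcxrA lowest and Δprmt3 highest. It fell in ΔcxrA with a log2 fold change of -1.47 ± 0.22 (SE, limma adjusted p = 0.00050), which was -0.93 and no longer past the fold threshold under quantile normalization. In Δprmt3 its log2 fold change of 0.99 ± 0.22 (limma adjusted p = 0.011) did not pass the fold threshold. It passed when Δprmt3 replicate 3 or Δku70 replicate 3 was left out, and the value was 0.26 under quantile normalization. Between the mutants it was lower in ΔcxrA, at -2.46 ± 0.22 (limma adjusted p = 2.8e-05), which was -1.18 and still called under quantile normalization. This gene alone held 0.234% to 0.359% of all FPKM in ΔcxrA libraries, 0.906% to 1.22% in Δprmt3 libraries and 0.535% to 0.656% in Δku70 libraries.

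POX_a00772, annotated as a β-glucosidase of the SUN family, was the other gene of this side that fell in ΔcxrA. It had 284, 268 and 290 scaled FPKM in ΔcxrA, 822, 770 and 865 in Δprmt3, and 678, 789 and 850 in Δku70. The ΔcxrA libraries lay below all others, and the Δprmt3 and Δku70 libraries overlapped. The log2 fold change was -1.45 ± 0.10 in ΔcxrA against Δku70 (SE, limma adjusted p = 5.9e-06), 0.09 ± 0.10 in Δprmt3 against Δku70 and -1.54 ± 0.10 between the mutants.

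Of the 4 genes that rose in ΔcxrA, 3 had low levels in every strain. POX_a00778, a hypothetical protein at the outer end of the set, had 26.6, 35.8 and 50.6 scaled FPKM in ΔcxrA, 0.14, 0 and 0.05 in Δprmt3, and was listed at 0 in all Δku70 libraries. It was the only one of the 30 neighbours listed at 0 in all libraries of Δku70, and no fold change is given against values of 0. POX_a00777, also a hypothetical protein, had 10.8, 11 and 11.1 in ΔcxrA, 4.01, 5.15 and 4.26 in Δprmt3, and 4.06, 3.44 and 2.19 in Δku70. Its log2 fold change was 1.78 ± 0.23 against Δku70 (SE, limma adjusted p = 0.00021) and 1.29 ± 0.23 against Δprmt3 (limma adjusted p = 0.0013).

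The other 2 rises were weak. POX_a00771 had 1.71, 1.98 and 2.27 scaled FPKM in ΔcxrA, 1.32, 0.33 and 0.89 in Δprmt3, and 0.35, 0.97 and 0.91 in Δku70. Its log2 fold change of 1.40 ± 0.50 (SE, limma adjusted p = 0.040) was no longer called under 9 of the 18 other settings. POX_a00765, at a distance of 2, had 4.50, 3.69 and 0.91 in ΔcxrA, was listed at 0 in all Δprmt3 libraries, and had 0, 0 and 1.12 in Δku70. The ΔcxrA and Δku70 libraries overlapped, and its log2 fold change of 3.50 ± 1.01 (SE, limma adjusted p = 0.016) was no longer called under 5 of the 18 settings, among them leaving out ΔcxrA replicate 1 or 2 or Δku70 replicate 1 or 2.

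The remaining 9 genes of the high-number side were not called against Δku70 in either mutant. POX_a00766, at a distance of 3, had 18.3, 20.8 and 20.7 scaled FPKM in ΔcxrA, 17.8, 17.8 and 17.2 in Δprmt3, and 17.9, 20.3 and 19.6 in Δku70. The ΔcxrA and Δku70 libraries overlapped, with a log2 fold change of 0.04 ± 0.09 (SE). POX_a00775 had 69.5, 98.2 and 88.3 in ΔcxrA, 214, 235 and 150 in Δprmt3, and 172, 120 and 106 in Δku70. It was not called against Δku70 but was lower in ΔcxrA than in Δprmt3, at -1.22 ± 0.23 (SE, limma adjusted p = 0.0019). POX_a00768 and POX_a00774 had small log2 fold changes in ΔcxrA, -0.58 ± 0.07 and -0.54 ± 0.08, with limma adjusted p-values of 0.00014 and 0.00060, short of the fold threshold. The others were POX_a00767, POX_a00769, POX_a00770, POX_a00773 and POX_a00776, with log2 fold changes in ΔcxrA between -0.73 in POX_a00770 and 2.03 ± 1.14 (SE) in POX_a00773, which was listed at 0 in 2 Δku70 libraries.

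The genes just outside the set were read for comparison. POX_a00747, annotated as another transcription factor of the Zn2Cys6 type, had 77.6, 80.0 and 93.5 scaled FPKM in ΔcxrA, 155, 108 and 111 in Δprmt3, and 283, 251 and 154 in Δku70. It fell in ΔcxrA (log2 fold change -1.41 ± 0.23, SE). In Δprmt3 its log2 fold change of -0.85 ± 0.23 (limma adjusted p = 0.028) did not pass the fold threshold. POX_a00746, annotated with a winged helix DNA-binding domain, had 97.2, 108 and 123 in ΔcxrA, 1169, 1269 and 1197 in Δprmt3, and 1222, 1197 and 830 in Δku70. It fell in ΔcxrA (log2 fold change -3.29 ± 0.16, SE) and had 0.18 ± 0.16 in Δprmt3. On the other side, POX_a00779 was at or below 0.59 scaled FPKM in every library. POX_a00780, a hypothetical protein, was listed at 0 in all ΔcxrA libraries. It had 0, 0.31 and 0 in Δprmt3 and 4.56, 2.63 and 4.35 in Δku70, and was called lower in both mutants. With FPKM as deposited, or without Δprmt3 replicate 1 or Δku70 replicate 3, 2 of these 4 were called lower in Δprmt3 in place of 1. With cxrA itself counted, the identifiers called lower in ΔcxrA without a gap ran from POX_a00746 to POX_a00764, 19 in all. The only longer run of this kind in the genome had 22 identifiers, POX_c04232 to POX_c04253, and it was called lower in both mutants. These runs were looked for after the values were seen. The length of the run around cxrA depended on the processing. Under quantile normalization POX_a00764, at its high-number end, was not called in ΔcxrA (-0.93). With FPKM as deposited, 2 of the 4 genes just outside the set were called lower in ΔcxrA in place of 3.

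The set was compared with windows of the same size elsewhere on POX_a. The window around cxrA held 21 called genes in ΔcxrA against Δku70, and the 60 other windows of 31 identifiers that do not overlap held 3 to 14, with a median of 8. For genes called lower it held 17, against 0 to 11 in the others, and for genes called higher it held 4, a count that 33 of the 60 reached or passed. In Δprmt3 against Δku70 the window held 15 called genes, against 0 to 10 with a median of 2.5. For the direct comparison of the mutants it held 8, and 28 of the 60 windows held at least as many. With 5 identifiers on each side in place of 15, the window held 7 called genes in ΔcxrA, and 2 of 173 other windows held at least as many. The adjoining window on the low-number side, POX_a00717 to POX_a00747, held 14 called genes in ΔcxrA, 10 of them lower, and 3 in Δprmt3. Of its 15 identifiers next to the set, POX_a00733 to POX_a00747, 9 were called lower in ΔcxrA and 2 in Δprmt3. The adjoining window on the high-number side held 11 called genes in ΔcxrA, 3 of them lower. Since the falls in the window around cxrA were shared between replicates as described above, these counts are given as a description, with no test.

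**Figure D4:**
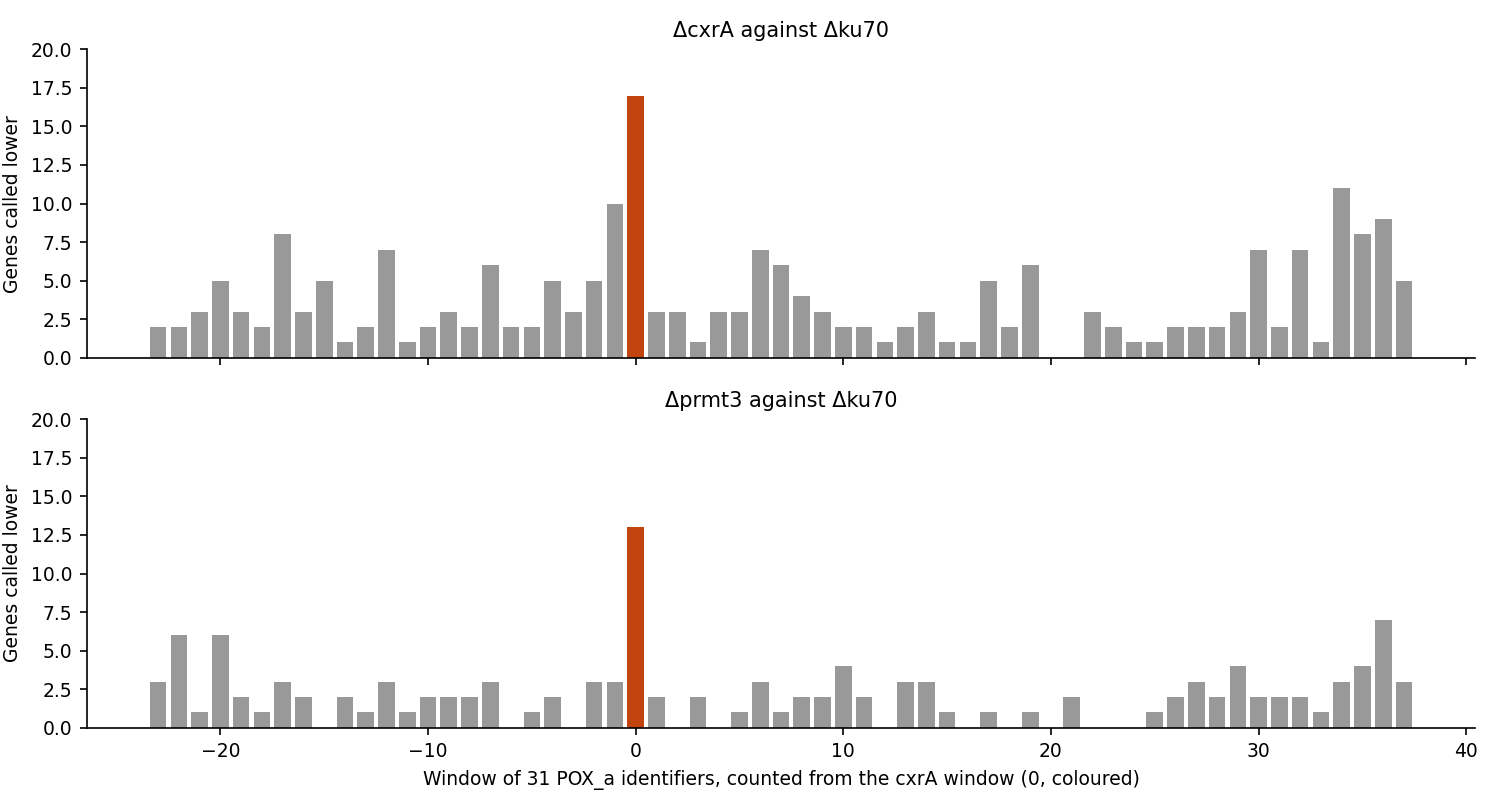
Number of genes called lower in each window of 31 POX_a identifiers, for ΔcxrA against Δku70 (top) and Δprmt3 against Δku70 (bottom). The horizontal axis counts windows from the one around cxrA, at 0 and coloured, where the bars reach 17 and 13 against at most 11 and 7 in the 60 other windows.

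POX_a00764 was set beside 6 genes for secreted cellulases and xylanases elsewhere in the genome. In ΔcxrA 5 of these 6 fell, with log2 fold changes from -5.55 in cel61A (POX_b02315), a lytic polysaccharide monooxygenase gene, to -2.38 in the cellobiohydrolase gene POX_d05671. The endoglucanase gene eg1 (POX_d04883) had -0.38 ± 0.19 (SE) and was not called. In Δprmt3, eg1 and the xylanase gene xyn11A (POX_a01871) rose by 1.11 and 1.43, cel61A and the β-glucosidase gene bgl1 (POX_e06772) fell by 1.36 and 1.24, and 2 were not called. With FPKM as deposited, or without Δprmt3 replicate 1 or Δku70 replicate 2, 1 of the 6 was called higher in Δprmt3 in place of 2. The value of POX_a00764 in ΔcxrA, -1.47, was thus closer to 0 than those of the 5 genes that fell. All 6 were lower in ΔcxrA than in Δprmt3, with a median log2 fold change of -2.67, beside -2.46 for POX_a00764. Under quantile normalization these were -1.86 for the 6, all still called, and -1.18 for POX_a00764, and with FPKM as deposited 5 of the 6 were called. In Δku70 replicate 3, where all 15 genes of the low-number side were at their lowest, POX_d05671 was at its highest, with 13291 scaled FPKM against 8612 and 7397 in the other replicates. The cellobiohydrolase gene POX_d04867, eg1, cel61A and xyn11A were also at their highest there. The exception was bgl1, with 219 against 216 and 237.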

How the data were processed

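Total RNA of 9 mycelium samples, 3 of each of 3 strains, was sequenced. After read cleaning with SOAPnuke and alignment with HISAT2, the authors estimated expression with Bowtie2 and RSEM and deposited it as FPKM for each of 11082 features, 1 table per library. The strand setting of the counting and the genome build were not given in the sources used here, so overlapping transcripts of neighbouring genes cannot be told apart. The POX03070 libraries were taken as Δprmt3, the only other deletion strain in the study's RNA-sequencing, and POX_b03080 was listed at 0 or close to 0 in them.

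The FPKM of each library were divided by a factor, the median of its ratios to the mean of the libraries on the log scale, taken on the 9335 features with values above 0 in every library. The 504 features at 0 throughout were left out, and 10578 were fitted as log2(scaled FPKM + 0.1) with limma 3.58.1 in R 4.3.3 (lmFit, eBayes with trend), 1 mean per strain over all 9 libraries, with Benjamini-Hochberg adjustment over all features of a comparison. All 31 identifiers passed this filter. The thresholds for a call were 0.05 for the adjusted p-value and 1 for the absolute log2 fold change. Fold changes on this scale understate the change of genes with low FPKM. P-values set the difference between strain means against the spread between these biological replicates. Whether that spread covers differences between transformants is not known, since the transformants sequenced were not given. Windows were laid without overlap from the one around cxrA outward. Tables were made with Python 3.11.15, pandas 2.3.3 and numpy 2.4.6. The fit was tested on simulated data with noise drawn separately for each feature. It called 81 of 100 features changed by 1.5 on the log2 scale and 91 of 100 changed by 2, all in the right direction. Of the unchanged features, 8 were called. Genes that deviate together, as on the low-number side, were not simulated.

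All 31 identifiers are accounted for. Values in every library are given for cxrA, the 3 nearest identifiers on each side, every gene called against Δku70, every gene listed at 0 in all libraries of a strain, and 1 gene called only between the mutants. The 2 identifiers beyond each end were added after the values were seen. The set and the lists of other genes were chosen with earlier results of these data known. RefSeq assembly ASM172317v3, which holds 9718 of the annotated identifiers, was used only for order and neighbours.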

Additional observations from a re-analysis of the deposited data

Results flagged for a closer look

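The log2 fold change between the mutants, ΔcxrA against Δprmt3, was past both thresholds for 8 of the 30 neighbours. This share, 26.7%, is not above the 29.8% of all tested features called in this comparison, so the count is no result about these genes as a group. The values were -5.30 for POX_a00762, -4.27 for POX_a00755, -2.46 for the endoglucanase gene POX_a00764 (-1.18 under quantile normalization), -1.54 for the β-glucosidase gene POX_a00772, -1.22 for POX_a00775 and 1.29 for POX_a00777. POX_a00762 and POX_a00755 were called in opposite directions in the mutants against Δku70. POX_a00765 averaged 3.03 ± 1.89 scaled FPKM in ΔcxrA (SD, n = 3) and was listed at 0 in Δprmt3. POX_a00778 averaged 37.7 ± 12.1 scaled FPKM in ΔcxrA and 0.06 ± 0.07 in Δprmt3 (SD, n = 3 each).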

How the results depend on the processing

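Leaving out each replicate in turn gave 19 to 22 called neighbours in ΔcxrA against Δku70 (21 with all libraries), 14 to 16 in Δprmt3 against Δku70 (15) and 8 to 9 between the mutants (8), and 0 to 0 of the 60 other windows with as many calls as the one around cxrA in ΔcxrA. Over the other settings (FPKM as deposited, a pseudocount of 0.01 or 1, quantile normalization, annotated identifiers only, features averaging 1 FPKM or more, a robust eBayes, a fit to the 6 libraries compared) the ΔcxrA count ran from 18 with quantile normalization to 22 with FPKM as deposited. With 5 identifiers on each side, 2 of 173 windows held at least as many calls, and with sliding windows of 31 identifiers 0 of 1827 did. Ranking the windows, and counting the lists of other genes, under every other fit was added after seeing the data.

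Of 774 values of named genes under other settings, 754 kept their direction and side of the threshold, 18 no longer passed it, 2 newly passed it and 0 changed direction. POX_a00771 (0.47 to 1.79) and POX_a00765 (1.51 to 5.68) lost their ΔcxrA calls most often. Quantile normalization moved POX_a00764 to -0.93 in ΔcxrA and 0.26 in Δprmt3 against Δku70, and to -1.18 between the mutants. Between the mutants, POX_a00772 (-0.97) and POX_a00775 (-0.64) were not called with FPKM as deposited. The cause was not tested.

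With the replicate number as a block, 20 neighbours were called in ΔcxrA against Δku70, 15 in Δprmt3 against Δku70 and 8 between the mutants. Across features, libraries with the same number did not deviate together (correlations of -0.04 to 0.05), which cannot show whether the numbers pair the samples. On the low-number side replicate 1 was the lowest for all 15 genes in both mutants, and replicate 3 in Δku70. Genes near 1 FPKM, such as POX_a00765, POX_a00771 and POX_a00773, are limited by depth, and no counting error can be given without read counts.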
